A study of Mus musculus with 42 samples.

Results

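Genes of the liver X receptor (LXR) pathway of cholesterol efflux were followed in mouse bone marrow-derived macrophages, by occupancy of RNA polymerase II (Pol II) and by H3K27ac, the acetylation of histone H3 found at promoters and enhancers in use. The 8 genes, taken by symbol from 21897 protein-coding genes, were the receptors Nr1h3 and Nr1h2 and the LXR targets Abca1, Abcg1, Apoe, Mylip, Lpcat3 and Smpdl3a. Each of 6 groups had 3 Pol II and 3 H3K27ac libraries of chromatin immunoprecipitation with sequencing and 1 input library without antibody. Macrophages were wild type (WT) or lacked Nur77 (Nur77-KO, or KO), the nuclear receptor encoded by Nr4a1. They came from bone marrow of male C57Bl6/J mice aged 6 to 12 weeks, cultured for 7 days with L929-conditioned medium, and received no lipopolysaccharide (LPS, 0 h) or 100 ng/ml LPS for 1 or 18 h. The methods describe deletion of floxed Nr4a1 in the whole body with a CMV-driven Cre that was then bred out, and WT littermates. The genotype label of the KO libraries reads only "cre", and a part of Cre cannot be told apart from that of Nur77. Nothing in the labels says that libraries of a group came from separate mice, so p-values measure the spread between these libraries.

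LXRα (Nr1h3) and LXRβ (Nr1h2) are nuclear receptors that bind oxysterols and, paired with a retinoid X receptor, raise transcription of genes that move cholesterol out of the cell. Abca1 and Abcg1 encode transporters that load cholesterol onto lipid-poor apolipoprotein A-I and onto high-density lipoprotein, and Apoe encodes an apolipoprotein that accepts it. Mylip (Idol) encodes a ubiquitin ligase that sends the LDL receptor for degradation, Lpcat3 an enzyme that places polyunsaturated fatty acids in membrane phospholipids, and Smpdl3a a secreted phosphodiesterase. Nur77 is an orphan nuclear receptor of the NR4A family.

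Values are normalized tags, the number of sequenced tags in enriched regions after scaling each library to 10000000 tags. For Pol II they were summed over the gene body with 500 bp on either side, and for H3K27ac over 2500 bp on either side of the annotated start. Pol II libraries held 21730524 to 36124602 tags. H3K27ac libraries of KO reached higher depths (23562634 to 55367970) than those of WT (13505272 to 31147064), and the part of this gap in the H3K27ac results was not tested. All 6 macrophage markers (Csf1r, Adgre1, Itgam, Cd68, Spi1 and Lyz2) were above 0 in all 36 ChIP libraries. Between the genotypes at 1 h, Pol II was lower in KO over Adgre1 (-0.77) and Itgam (-0.52) and higher over Csf1r (0.42). H3K27ac at 1 h was higher in KO at 3 of the 6 (Lyz2, Cd68 and Csf1r, by 0.43 to 0.55) with all libraries and at 0 without the 3 libraries described next. At 18 h Pol II over 4 of the 6 was lower in KO (Itgam by -1.16, Lyz2 by -0.74, Csf1r by -0.53 and Adgre1 by -0.25), and the 18 h interaction was called downward for the same 4. Of 5 neutrophil and granulocyte precursor markers, Ly6g, S100a9 and Mpo were at 0 in all ChIP libraries, while S100a8 and Elane were above 0 in all 18 H3K27ac libraries. Their summed H3K27ac was 18.6 to 86.4 tags in WT and 20.9 to 178.9 in KO, and both were higher in KO at 1 h (median 1.16). Without those 3 libraries the 1 h differences were 0.91 for S100a8 and 0.98 for Elane. At 0 h the 2 differed by 1.44 and 0.20, and at 18 h by 0.90 and -0.51, none past the test with all libraries. Without the 3 the 18 h differences were 0.29 and -0.55. By Pol II 1 of the 5 was tested between the genotypes, S100a8, and it was higher in KO at 0 and 1 h (1.02 and 1.15). Cd3e, Cd3g and Cd8a of T cells and Col1a1 and Col1a2 of fibroblasts were at 0 in all ChIP libraries. Pol II over Cd4, the other T cell marker, was 1.21 to 56.4 tags in WT and 2.39 to 31.3 in KO, and was lower in KO at 18 h (-0.98). Pol II over the B cell marker Ms4a1 was 0 to 72.3 tags in WT and 0.996 to 45.3 in KO, higher in KO at 1 h (0.65) and lower at 18 h (-0.65). Its H3K27ac was 106 to 363 tags in WT and 114 to 272 in KO, higher in KO at 1 h with all libraries (0.71) but not without the 3 (0.04), and lower at 18 h without them (-0.77) but not with all libraries (-0.68). Cd79a, another B cell marker, held 33.8 to 115.8 Pol II tags, did not pass the test between the genotypes at any time, and was at 0 for H3K27ac. The summed Pol II of 3 dendritic cell markers was 258 to 1375 tags in WT and 295 to 1282 in KO, and their summed H3K27ac, with Flt3 at 0, was 258 to 574 and 196 to 602. Of these, Pol II was higher in KO over Flt3 at 1 h (0.44) and over Xcr1 at 18 h (0.71), and H3K27ac at Zbtb46 was higher in KO at 0 h without the 3 libraries (1.03) but not with all. At 1 h the fibroblast marker Pdgfra was higher in KO by Pol II (0.44), and by H3K27ac without the 3 libraries (0.73). The part of these markers in the results was not tested. At the targeted gene Nr4a1, Pol II at 0 h ranged from 188 to 208 tags in WT and from 70.2 to 87.8 in KO (log2 change -1.22 ± 0.17, SE, adjusted p = 0.000124, limma). It was 23.0 to 30.4 in WT and 33.5 to 39.0 in KO at 1 h, and at 18 h 0 to 7.46 in WT and 0 in every KO library. Pol II regions were thus still found over Nr4a1 in KO at 0 and 1 h. How the deleted part of the gene lies in this window was not analysed here.

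In all, 3 KO libraries of H3K27ac stood apart and touch every KO value of this mark at 1 and 18 h. Replicates 2 and 3 at 1 h correlated with one another at Pearson r of 0.991 over 10437 genes, with replicate 1 at 0.910 and 0.912, and with WT at the same time at 0.903 to 0.905, whereas replicate 1 correlated with WT at 0.978 to 0.980. Replicate 1 at 18 h correlated with its group mates at 0.913 and 0.914. Within the other H3K27ac groups r was 0.986 to 0.994, and within the Pol II groups 0.985 to 0.993. Replicates 2 and 3 of KO at 1 h correlated with replicate 1 of KO at 18 h at 0.904 and 0.905. At 1 h it is therefore replicate 1 that differs from the other two libraries of its group, and which of the 3 are as labelled was not tested. All were kept as labelled, and without them KO at 1 h is 1 library, assumed to vary like the other groups.

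Before LPS, Nur77-KO macrophages carried more Pol II than WT over both transporter genes, Abca1 and Abcg1, and over Smpdl3a, and 1 h of LPS turned the transporters in opposite directions: Abca1 was further above WT and Abcg1 fell below it. Replicate 1 of WT at 0 h had 61.6% of its tags in regions, against 70.4% to 71.9% in the other 0 h Pol II libraries. It held the lowest WT values at 0 h over Abca1 and Abcg1 and the highest over Smpdl3a. Without it the 0 h call of Abca1 was lost. By 18 h Apoe and Smpdl3a were lower in KO, and neither transporter passed the test, although after centring each library on its median both were higher in KO (0.27 for Abca1 and 0.29 for Abcg1) and Apoe did not pass. Pol II over 4 of 6 macrophage markers was lower in KO at that time too (median of the 6, -0.39). At 0 h, 3 of 8 genes were higher in KO and 0 lower (adjusted p under 0.05 in limma, for which 6.96% of the genes tested were called in either direction). At 1 h, 5 were higher and 1 lower, with 45.7% of genes called. At 18 h, 0 were higher and 2 lower, with 21.1% called. The median log2 change over the 8 genes was 0.14, 0.20 and -0.09 at 0, 1 and 18 h, beside 0.04, 0.24 and -0.10 over all genes tested. Counted over 500 bp on either side of the start in place of the gene body, 0, 2 and 1 of the 8 genes were called at 0, 1 and 18 h (2.76%, 23.4% and 4.95% of genes called over that window), with Abca1 at 0.66 (adjusted p = 5.62e-06) and Abcg1 at -0.30 (adjusted p = 0.0213) at 1 h. In bulk chromatin, fewer cells with an occupied gene and less occupancy per cell cannot be told apart.

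**Figure D1:**
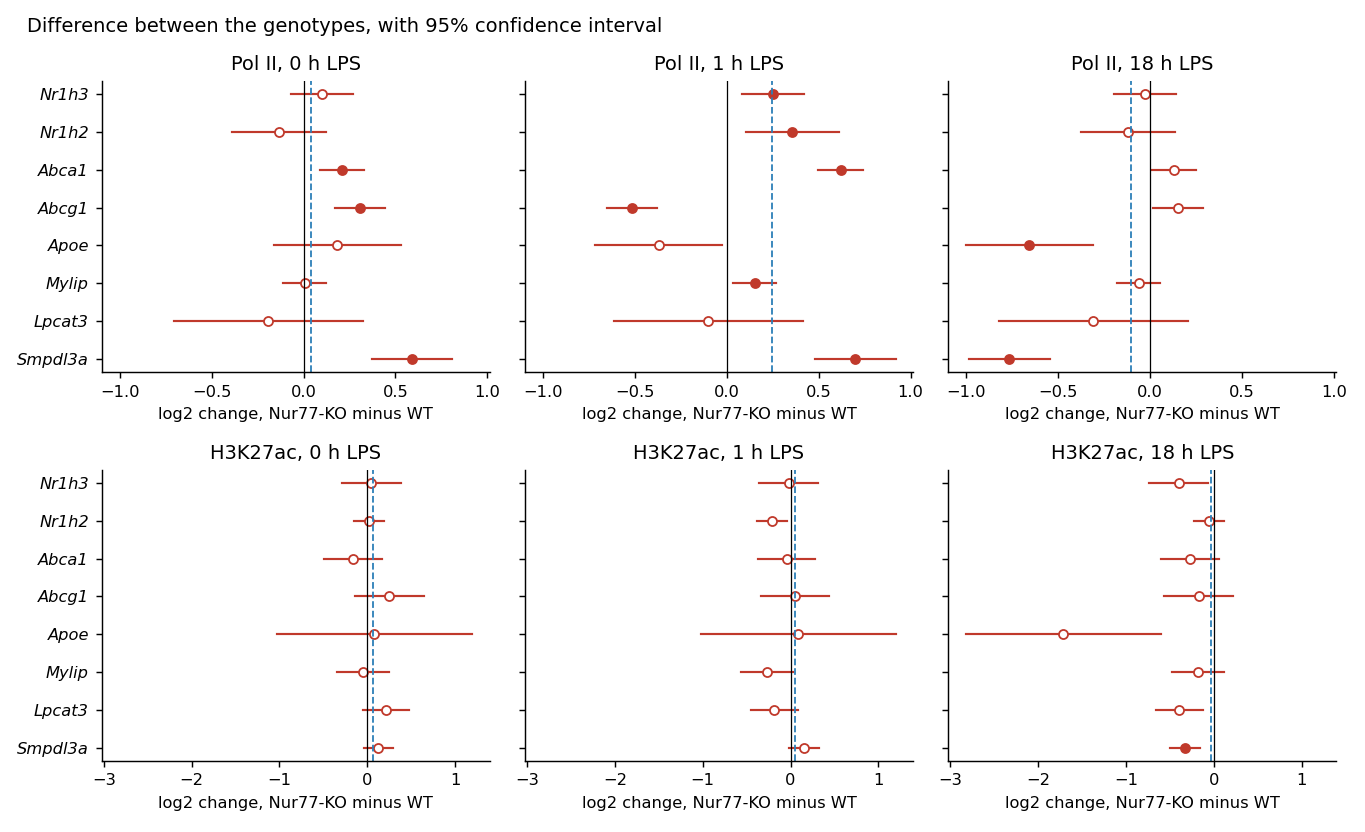
Difference between Nur77-KO and WT for each of the 8 genes, as log2 change of normalized tags (x axis), for Pol II (top) and H3K27ac (bottom) at 0, 1 and 18 h of LPS. Points are limma estimates with 95% confidence intervals, filled where the adjusted p is under 0.05, and the dashed blue line is the median over all genes tested; Abca1 lies at 0.62 and Abcg1 at -0.52 for Pol II at 1 h, and H3K27ac has 1 filled point, Smpdl3a at 18 h.

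The LPS calls among the 8 genes were about as frequent as among all genes at 1 h. In WT at 1 h, Pol II rose over 3 of 8 genes and fell over 4, while 86.9% of all genes were called and the median of all genes fell by 0.82 on the log2 scale (members: -0.13). In KO at 1 h it rose over 3 and fell over 3, with 82.9% of genes called and an all-gene median of -0.62. At 18 h, 5 rose and 2 fell in WT (66.5% of genes called), and 5 rose and 3 fell in KO (70.2% called). The LPS change differed between the genotypes, as the KO change minus the WT change, for 1 gene upward and 1 downward at 1 h (18.4% of genes called) and for 0 upward and 2 downward at 18 h (14.8% called). The all-gene median moved by over 0.1 in every 1 h comparison, and at 18 h in KO with LPS (-0.18), in the interaction (-0.14) and between the genotypes (-0.10). Values after centring are therefore given beside results that depend on it. Centring turned the 1 h falls of Nr1h2 and Abcg1 in WT and of Lpcat3 in both genotypes upward, and quantile normalization turned the 1 h rises of Abca1 downward.

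**Figure D2:**
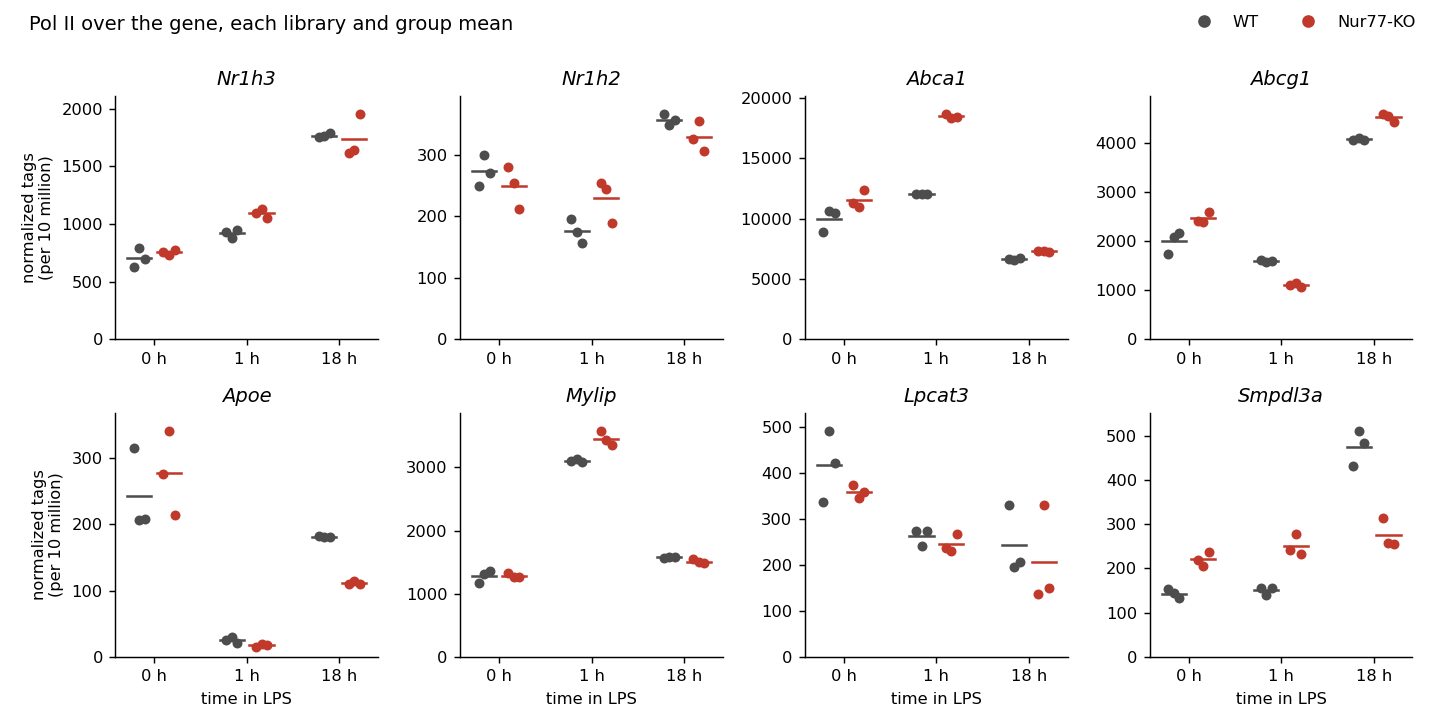
Normalized Pol II tags per 10000000 over each gene (y axis, from 0, linear, scaled per gene) against time in LPS, with a point for each library and a bar for the group mean (n = 3), WT in grey and Nur77-KO in red. Abca1 in KO peaks at 1 h above every other group, Abcg1 falls at 1 h and is highest at 18 h, and Smpdl3a at 18 h is high in the WT libraries only (433 to 511 tags).

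Nr1h3 (ENSMUSG00000002108, GRCm38 chr2:91184061-91202834, minus strand) gained Pol II through the time course in both genotypes. The libraries held 631, 791 and 696 tags at 0 h, 929, 879 and 948 at 1 h, then 1753, 1762 and 1789 at 18 h in WT. In KO they held 757, 731 and 777, then 1099, 1132 and 1056, then 1619, 1646 and 1958. All times were separate from one another in each genotype, and WT and KO overlapped at 0 and 18 h. The 18 h rise was 1.32 ± 0.08 (SE, adjusted p = 1.18e-10) in WT and 1.19 ± 0.08 (SE, adjusted p = 3.96e-10) in KO, 2.49-fold and 2.28-fold. At 1 h KO was above WT by 0.25 ± 0.08 (SE, adjusted p = 0.0174), a call that was lost without KO or WT replicate 2 (adjusted p up to 0.066), and after centring the difference was 0.00 (adjusted p = 0.979). The tags assigned here are a share of longer regions: in the median library 31.1% of the tags of the contributing regions fell in the window, and the merged region, chr2:91131389-91229644, runs on over Madd, Mybpc3, Acp2 and Ddb2.

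H3K27ac at the Nr1h3 start, which in the annotation belongs to a non-coding transcript beside Acp2, rose as well, from 610.1, 751 and 747 tags at 0 h in WT to 1101, 1100.2 and 1061 at 1 h, then 1637, 1525 and 1402 at 18 h. The WT rise was 0.63 ± 0.16 (SE, adjusted p = 0.00316) at 1 h and 1.11 ± 0.16 (SE, adjusted p = 2.73e-05) at 18 h. KO libraries held 733, 727 and 708, then 1183, 1076 and 963, then 810.0, 1309 and 1429.6, where the low value at 18 h is replicate 1, which stands apart. With all libraries the 18 h rise in KO was 0.66 ± 0.16 (SE, adjusted p = 0.00231), and without the 3 libraries 0.91 (adjusted p = 2.38e-06). The 1 region called at this locus, chr2:91191570-91213936 over the start, went in WT from 1915, 1966 and 1918 tags at 0 h to 5520.2, 5262 and 5474 at 18 h. Its rise was 1.48 ± 0.21 (SE, adjusted p = 1.35e-05), and 38.9% of all merged H3K27ac regions were called in this comparison (adjusted p under 0.05 and an absolute log2 change over 1).

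Nr1h2 (ENSMUSG00000060601, chr7:44549616-44553951, minus strand) moved less. WT libraries held 249.9, 299.5 and 270.4 Pol II tags at 0 h, 195, 175 and 157 at 1 h, then 367, 348 and 357 at 18 h. KO libraries held 280.5, 254 and 213, then 254, 245 and 189, then 326, 354 and 306. The genotypes overlapped at each time. At 1 h WT had fallen by 0.61 ± 0.12 (SE, adjusted p = 0.000159) on the log2 scale, which after centring was 0.19 and over 500 bp around the start 0.34, so its direction depends on scaling and window. Regions covered less of the window at 1 h, and within what was covered the density was 51.2 ± 4.67 tags per kb in WT at 0 h and 51.6 ± 7.65 at 1 h (SD, n = 3). KO was above WT at 1 h by 0.36 ± 0.12 (SE, adjusted p = 0.0238), a call that was lost after centring (0.11, adjusted p = 0.465) and without KO replicate 1 or 2 or WT replicate 2 or 3 (adjusted p up to 0.103). At 18 h Pol II was above 0 h in both genotypes, by 0.38 ± 0.12 (SE, adjusted p = 0.011) in WT and 0.39 ± 0.12 (SE, adjusted p = 0.0079) in KO (up to 0.0509 without KO 0 h replicate 3). Of the H3K27ac comparisons, only the 1 h rise in WT passed, from 439 ± 17.9 to 517 ± 18.1 tags (SD, n = 3), by 0.23 ± 0.08 (SE, adjusted p = 0.0231). It was lost without WT 0 h replicate 1 or WT 1 h replicate 1 or 3 (adjusted p up to 0.0861).

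Per kb of window, Pol II was denser over Nr1h2 than over Nr1h3 before LPS and denser over Nr1h3 by 18 h. Nr1h2 carried 51.2 ± 4.67 tags per kb in WT at 0 h (SD, n = 3) and Nr1h3 35.7 ± 4.06. At 18 h in WT the densities were 66.9 ± 1.74 and 89.4 ± 0.968. Across the 8 genes the order of Pol II density in WT at 0 h, in tags per kb with the SD (n = 3), was Abca1 (76.9 ± 7.55), Apoe (59.5 ± 15.2), Mylip (55.0 ± 4.44), Nr1h2 (51.2 ± 4.67), Nr1h3 (35.7 ± 4.06), Abcg1 (32.5 ± 3.56), Lpcat3 (9.82 ± 1.81) and Smpdl3a (7.74 ± 0.538). Apoe, Mylip and Nr1h2 lay within one another's spread, as did Nr1h3 and Abcg1. Libraries of Abca1 and Apoe overlapped as well, and so did those of Lpcat3 and Smpdl3a.

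Abca1 (ENSMUSG00000015243, chr4:53030787-53159895, minus strand, 129 kb) held the most Pol II of the 8 genes. WT libraries held 8877, 10675 and 10461 tags at 0 h, 12067, 12019 and 12034 at 1 h, then 6656, 6616 and 6758 at 18 h. KO libraries held 11294, 10943 and 12357 at 0 h, 18695, 18329 and 18445 at 1 h, then 7341, 7327 and 7272 at 18 h. Every KO library was above every WT library at each of the 3 times. The difference was 0.21 ± 0.06 (SE, adjusted p = 0.0352) at 0 h and 0.62 ± 0.06 (SE, adjusted p = 3.95e-07) at 1 h, a 1.54-fold difference. At 18 h it was 0.13 ± 0.06 (SE, adjusted p = 0.116) and did not pass the test, whereas after centring it was 0.27 (adjusted p = 6.14e-05).

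LPS for 1 h raised Abca1 Pol II in WT by 0.27 ± 0.06 (SE, adjusted p = 0.000282) and in KO by 0.68 ± 0.06 (SE, adjusted p = 5.44e-09). The rise was larger in KO by 0.41 ± 0.08 (SE, adjusted p = 0.00236). After centring the genotype difference at 1 h was 0.37 (adjusted p = 1.39e-06) and the interaction 0.19 (adjusted p = 0.0215). The rise itself depended on the scaling: after centring it was 1.07 in WT and 1.26 in KO, and after quantile normalization -0.61 and -0.07. The 0 h difference was lost without KO replicate 1 or 3 or WT replicate 1 (adjusted p up to 0.139). The 18 h difference, like that of Abcg1, passed the test without WT 0 h replicate 1 (adjusted p of 0.0104 and 0.0102). By 18 h Pol II had fallen below its 0 h level in both genotypes, by 0.58 ± 0.06 (SE, adjusted p = 8.99e-08) in WT and 0.65 ± 0.06 (SE, adjusted p = 1.48e-08) in KO.

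The 5′ and 3′ parts of Abca1 gave different pictures. Pol II formed a region of 104 kb over the start and most of the body (chr4:53057531-53161837) and, after a gap, a region of 41.6 kb over the end that reaches Nipsnap3b (chr4:53010908-53052551). In the 5′ region WT libraries held 7773, 9299 and 9158 tags at 0 h and 8563, 8448 and 8483 at 1 h, and those of KO 9903, 9698 and 10619, then 14258, 13965 and 13949. Occupancy there changed by -0.04 ± 0.05 (SE, adjusted p = 0.51) in WT and by 0.48 ± 0.05 (SE, adjusted p = 3.42e-07) in KO, and the interaction was 0.52 ± 0.07 (SE, adjusted p = 0.000212). In the 3′ region both genotypes rose, WT from 1595, 2015 and 2015 to 4409, 4475 and 4432 and KO from 2162, 2059.9 and 2434 to 5703, 5597 and 5595. The 3′ rise was 1.25 ± 0.07 (SE, adjusted p = 1.94e-10) in WT and 1.34 ± 0.07 (SE, adjusted p = 8.23e-11) in KO. Both passed the region threshold, with 49.9% of all Pol II regions called at 1 h in WT and 47.2% in KO. The 3′ interaction was 0.10 ± 0.10 (SE, adjusted p = 0.571). The larger 1 h rise of KO was measured in the 5′ region, and the 3′ interaction did not pass the test.

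At the Abca1 start H3K27ac in WT went the other way at 1 h. WT libraries held 617, 639 and 442 tags at 0 h, 414, 387 and 473 at 1 h, then 499, 456 and 508 at 18 h, and KO libraries 506, 493 and 493, then 384, 535 and 334, then 455, 397 and 360.3. The WT change at 1 h was -0.39 ± 0.15 (SE, adjusted p = 0.0416), between groups that overlapped. It was lost in 9 of 18 fits with 1 library left out (adjusted p up to 0.165). These were the fits without WT 0 h replicate 1 or 2, WT 1 h replicate 1 or 2, WT 18 h replicate 1 or 3 or any KO 0 h library. No difference between the genotypes passed the test at 0, 1 or 18 h (-0.16, -0.04 and -0.27, with 95% intervals of -0.49 to 0.16, -0.37 to 0.28 and -0.60 to 0.06). Without the 3 libraries that stand apart the 1 and 18 h differences were -0.14 (adjusted p = 0.68) and -0.36 (adjusted p = 0.0811). Here too the window took only part, 26.5% to 100%, of the tags of the region over the start. The whole merged region (chr4:53144975-53162550) held 1455, 1508 and 1461 tags in WT and 1745, 1729 and 1786 in KO at 0 h. All KO libraries thus lay above WT, with a difference of 0.25 that did not pass with all libraries (adjusted p = 0.701) and passed without the 3 (adjusted p = 0.00247). At 1 h the difference was -0.11 (adjusted p = 0.684) with all libraries and 0.53 (adjusted p = 7.14e-05) without the 3. In WT the region fell at 1 h as the window did (-0.59, adjusted p = 0.0209). Exons and introns 21.8 to 57.2 kb from the start carried a region of 35.4 kb (chr4:53102671-53138109) with 1639, 1754 and 1657 tags in WT at 0 h and 2327, 2267 and 2251 at 18 h. The largest called change of this mark at the locus, by the fitted value, was in a weak intronic region (chr4:53138292-53140444) that held 11.7, 19.6 and 18.2 tags in KO at 0 h and 0 in all 3 KO libraries at 18 h, which gives no fold. In that comparison 40.1% of regions were called. It was also called without the 3 libraries (adjusted p = 0.0126). The call was lost after centring (adjusted p = 0.0769) and in 4 of 18 fits with 1 library left out (without KO 0 h replicate 2 or 3 or KO 18 h replicate 2 or 3).

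The 250 bases before the RefSeq start of Abca1 (GRCm38, chr4:53159896-53160145, minus strand) are shown because Pol II and H3K27ac both cover them; capitals mark a GC box (GGGCGG) on either strand, an E box (CACGTG) and a TATA box (TATAAA).
Abca1: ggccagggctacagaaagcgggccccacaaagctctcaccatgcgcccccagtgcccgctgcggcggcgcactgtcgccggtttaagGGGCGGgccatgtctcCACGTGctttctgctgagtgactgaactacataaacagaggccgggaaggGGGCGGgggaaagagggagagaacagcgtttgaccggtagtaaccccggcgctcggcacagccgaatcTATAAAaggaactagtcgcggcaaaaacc
LXR elements of the DR4 kind (AGGTCA, any 4 bases, AGGTCA, with at most 1 mismatch in each AGGTCA, both strands) and the NBRE of Nur77 (AA followed by AGGTCA, no mismatch, both strands) were not among the letters of this promoter window. That rule is strict. The printed stretch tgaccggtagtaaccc, read on the other strand, has the spacing of a DR4, with more mismatches than allowed in 1 AGGTCA. In the H3K27ac regions of the locus, 7 stretches matched the DR4 letters and 4 the NBRE letters; a match is a description of letters, and an NBRE contains the AGGTCA of a DR4. The DR4 match with 1 mismatch in all (chr4:53113357-53113372, minus strand, intron, 46.5 kb from the start) and the one nearest the start (chr4:53150834-53150849, plus strand, intron, 9.05 kb) are shown with 7 bases on either side and the AGGTCA-like stretches in capitals. They are followed by the 4 NBRE matches (chr4:53103372-53103379 and chr4:53114174-53114181 on the plus strand, chr4:53120144-53120151 and chr4:53135915-53135922 on the minus strand) with the NBRE in capitals.
DR4, 46.5 kb: atttctcAGGTCAtatcAGCTCAttttaca
DR4, 9.05 kb: cctaatgAGGTTActaaAGGCCAggagacc
NBRE, 56.5 kb: atgaagaAAAGGTCAccaagca
NBRE, 45.7 kb: gtaaaggAAAGGTCAaagctca
NBRE, 39.7 kb: tcaaaccAAAGGTCAactttac
NBRE, 24.0 kb: agctttgAAAGGTCAggagtct
All 4 NBRE matches lie in the region of 35.4 kb.

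Abcg1 (ENSMUSG00000024030, chr17:31057675-31117988, plus strand) behaved unlike Abca1 at 1 h. WT libraries held 1746, 2084 and 2154 Pol II tags at 0 h, 1607, 1582 and 1586 at 1 h, then 4054, 4088 and 4057 at 18 h. KO libraries held 2404, 2395 and 2586, then 1103, 1153 and 1072, then 4588, 4543 and 4416. KO was above WT before LPS, below it at 1 h and above it again at 18 h, with no overlap at any time. The genotype difference was 0.31 ± 0.06 (SE, adjusted p = 0.006) at 0 h, -0.52 ± 0.06 (SE, adjusted p = 9.99e-06) at 1 h and 0.15 ± 0.06 (SE, adjusted p = 0.108) at 18 h, the last short of the threshold. After centring the 1 and 18 h differences were -0.77 (adjusted p = 3.48e-10) and 0.29 (adjusted p = 5.26e-05).

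With 1 h of LPS Abcg1 lost Pol II in WT (-0.32 ± 0.06, SE, adjusted p = 0.000191) and lost more in KO (-1.14 ± 0.06, SE, adjusted p = 2.19e-11), a difference of -0.82 ± 0.09 (SE, adjusted p = 1.3e-05). Centring turned the WT change to 0.48 (adjusted p = 8.48e-09), since Abcg1 fell by less than the median gene, and left the KO change at -0.57 (adjusted p = 8.49e-10) and the interaction at -1.05 (adjusted p = 3.61e-09). Enriched regions covered 57.0 to 59.4 kb of the window in WT at 1 h and 44.3 to 51.8 kb in KO, and within what was covered the density was 27.3 ± 0.545 and 23.3 ± 0.976 tags per kb (SD, n = 3). At 18 h Pol II was 2.04-fold its 0 h level in WT (1.03 ± 0.06, SE, adjusted p = 1.77e-10) and 1.83-fold in KO (0.87 ± 0.06, SE, adjusted p = 1.38e-09).

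H3K27ac within 2500 bp of the Abcg1 start was highest at 18 h in WT, with 390.1, 419 and 384 tags at 0 h, 319, 284 and 326 at 1 h, then 597, 584 and 631 at 18 h (0.59 ± 0.18, SE, adjusted p = 0.0139 for 18 h). KO held 483, 441 and 502, then 279.6, 479 and 245, then 445, 502 and 682. The 1 h fall in KO, -0.55 ± 0.18 (SE, adjusted p = 0.0226), was between overlapping groups, since replicate 2, one of the libraries that stand apart, held 479 tags; without the 3 libraries it was -0.74 (adjusted p = 0.000547). It was lost without KO 0 h replicate 1 or 3 or KO 1 h replicate 1 or 3 (adjusted p up to 0.122). This window took 12.6% to 64.2% of the tags of the region over the start, whose length was 4.74 to 27.1 kb, so its value falls where the region lengthens. The whole merged region (chr17:31056754-31084064) went the other way at 1 h. It held 1006, 1003 and 1034 tags in WT at 0 h, 1753, 1753 and 1845 at 1 h, then 1421, 1421 and 1516 at 18 h. The change at 1 h was 0.81 in WT (adjusted p = 2.63e-05) and 0.70 in KO (adjusted p = 0.000158), or 0.59 in KO without the 3 libraries. At 18 h it was 0.51 in both genotypes with all libraries, and 0.71 in KO without the 3. The genotype difference in this region was 0.19, 0.08 and 0.19 at 0, 1 and 18 h with all libraries, none past the test. Without the 3 it was 0.19, -0.03 and 0.39. Farther into the gene the mark fell. A region 39.3 to 42.6 kb from the start (chr17:31097000-31100277) held 31.8, 13.2 and 21.0 tags in WT and 41.7, 55.7 and 41.8 in KO at 0 h and 0 in all 6 libraries at 18 h. Another at 28.4 to 33.7 kb (chr17:31086112-31091328) fell in WT by 1.44 ± 0.26 (SE, adjusted p = 0.000179). Upstream of the start, a region of 2.07 kb (chr17:31051384-31053458) rose in WT from 23.4, 20.7 and 8.42 to 53.5, 61.8 and 51.2 (1.29 ± 0.22, SE, adjusted p = 0.000122). Pol II 8.88 to 10.4 kb upstream (chr17:31047243-31048796), a weak region, held 0, 7.67 and 0 tags in KO at 0 h and 20.3, 26.6 and 22.2 at 18 h (1.45 ± 0.19, SE, adjusted p = 4.56e-06; 37.0% of Pol II regions called).

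In the H3K27ac regions of Abcg1, 10 stretches matched the DR4 letters and 1 the NBRE. The DR4 match with 1 mismatch (chr17:31075705-31075720, plus strand, intron), the DR4 match nearest the start (chr17:31058881-31058896, minus strand, intron) and the NBRE (chr17:31061713-31061720, plus strand, intron) all lie in the region over the start, and are shown with capitals as for Abca1.
DR4, 18.0 kb: ctgagagAGGTTAatgtAGGTCAtcttggg
DR4, 1.21 kb: aggcaagAGGTAActgtCGGTCAaatcctg
NBRE, 4.04 kb: tgggagaAAAGGTCAggatgca

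Apoe (ENSMUSG00000002985, chr7:19696109-19699188, minus strand) lost nearly all of its Pol II at 1 h and regained part of it by 18 h, less in KO. WT libraries held 315, 206 and 208 tags at 0 h, 25.2, 29.3 and 21.1 at 1 h, then 183, 181 and 180.4 at 18 h. KO libraries held 275, 341 and 214, then 14.6, 18.6 and 18.2, then 111, 114 and 109.5. WT and KO overlapped at 0 h and were separate at 1 and 18 h. The 1 h fall was -2.83 ± 0.16 (SE, adjusted p = 2.77e-11) in WT and -3.38 ± 0.16 (SE, adjusted p = 2.65e-12) in KO, and after centring it was -2.03 and -2.81 respectively. At 1 h regions covered 1.10 to 1.75 kb of its 4.08 kb in WT and 1.05 to 1.24 kb in KO.

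At 18 h Apoe Pol II in KO was below WT by 0.66 ± 0.16 (SE, adjusted p = 0.00819) on the log2 scale, 0.634 of the WT level, with the window fully covered by regions in all 6 libraries. The change from 0 h was -0.38 ± 0.16 (SE, adjusted p = 0.0518) in WT and -1.22 ± 0.16 (SE, adjusted p = 3.57e-06) in KO, and the interaction was -0.84 ± 0.23 (SE, adjusted p = 0.0211). The interaction lost its call after centring, -0.68 (adjusted p = 0.105), and without KO 0 h replicate 2 or WT 0 h replicate 2 or 3 (adjusted p up to 0.0578). The genotype difference at 18 h after centring was -0.52 (adjusted p = 0.0587). At 1 h the KO was lower by 0.37 ± 0.16 (SE, adjusted p = 0.0727), which passed after centring, -0.62 (adjusted p = 0.017), and without WT 0 h replicate 1 or KO 0 h replicate 3. In the median library 36.3% of the tags of the contributing regions fell in the window, and the merged region (chr7:19692967-19718903) extends over Tomm40. It fell in KO from 1168, 1192 and 1086 tags at 0 h to 369, 358 and 349 at 18 h (-1.65 ± 0.07, SE, adjusted p = 2.85e-12). In WT it fell from 1099.5, 1218 and 1216 to 530.5, 534 and 542 (-1.12 ± 0.07, SE, adjusted p = 5.1e-10).

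H3K27ac in the window at the Apoe start followed the same course. It held 334, 332 and 323 tags in WT at 0 h, 48.5, 49.9 and 55.1 at 1 h, then 244, 261 and 218 at 18 h. KO held 355, 345 and 347, then 56.3, 46.9 and 62.4, then 8.50, 150.0 and 139, the lowest being the library that stands apart, and all 3 lay below WT. At 1 h the mark fell by 2.48 ± 0.52 (SE, adjusted p = 0.000877) in WT and 2.47 ± 0.52 (SE, adjusted p = 0.00123) in KO (-2.44 without the 3 libraries that stand apart). At 18 h it was -0.44 ± 0.52 (SE, adjusted p = 0.505) in WT and -2.24 ± 0.52 (SE, adjusted p = 0.00206) in KO (-1.21 without the 3). The 18 h difference between the genotypes was -1.72 ± 0.52 (SE, adjusted p = 0.0823) with all libraries and -0.70 (adjusted p = 9.38e-05) without the 3, and the interaction -1.80 ± 0.74 (SE, adjusted p = 0.313) and -0.77 (adjusted p = 0.000901). Downstream, 13.0 to 18.8 kb from the start (chr7:19680394-19686170), a second region fell in KO from 267, 268 and 262 tags to 0, 60.2 and 56.3 at 18 h (-2.94 ± 0.51, SE, adjusted p = 0.000114), the 0 being the library that stands apart (-2.01 without the 3, adjusted p = 3.48e-08). The whole merged region that covers the gene (chr7:19692175-19702569) was back near its 0 h level in WT by 18 h. It held 611, 607 and 608 tags, then 585, 619 and 580 (-0.03, adjusted p = 0.969 in limma). In KO its 18 h change was -2.07 (adjusted p = 0.016), and -0.72 without the 3 libraries. The 1 DR4 match of the locus lies 5.66 kb past the start (chr7:19693519-19693534, minus strand) in the region that covers the gene.
DR4, 5.66 kb: tgccaggGGGTCActgtCGGTCAatgacag

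Mylip (ENSMUSG00000038175, chr13:45389742-45412022, plus strand) had the largest 1 h rise of the 8 genes in both genotypes, also after centring. WT libraries held 1164, 1316 and 1361 Pol II tags at 0 h, 3101, 3137 and 3085 at 1 h, then 1561, 1588 and 1574 at 18 h. KO libraries held 1319.6, 1268 and 1260.1, then 3576, 3429 and 3359.8, then 1542, 1494 and 1487. The 1 h rise was 2.42-fold in WT (1.28 ± 0.06, SE, adjusted p = 4.62e-13) and 2.68-fold in KO (1.42 ± 0.06, SE, adjusted p = 1.08e-13), and it kept its direction under centring and quantile normalization. By 18 h occupancy was within 0.30 log2 units of its start in WT and 0.23 in KO, both still past the test, although in WT quantile normalization gave -0.03. All KO libraries were above all WT libraries at 1 h (0.15 ± 0.06, SE, adjusted p = 0.0329), a difference below the all-gene median of 0.24. It was -0.10 after centring. Leaving out KO 1 h replicate 1 or 2 or any WT 1 h replicate ended the call (adjusted p up to 0.116).

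At the Mylip start H3K27ac rose in WT from 423, 448 and 428 tags to 663, 579 and 655 at 1 h (0.53 ± 0.14, SE, adjusted p = 0.00453), although over 500 bp on either side of the start alone the change was -0.05. KO held 405, 403 and 451, then 492, 658 and 438 (0.31 ± 0.14, SE, adjusted p = 0.0817, and 0.23 without the 3 libraries). At the other end of the gene, a region of 5.96 kb over the 3′ end (chr13:45410981-45416940) was at 0 in all 6 libraries at 0 h and held 99.2, 81.6 and 61.5 tags in WT and 121, 41.8 and 41.5 in KO at 1 h. At 18 h it was at 0 in 5 of 6 libraries, the exception being the KO replicate that stands apart. In an intron 10.8 to 13.5 kb from the start (chr13:45400552-45403262) KO held 15.5, 62.0 and 50.9 tags at 1 h and WT 0, 10.7 and 0 (1.92 ± 0.42, SE, adjusted p = 0.00472; 14.1% of regions called). The high KO values are those of the libraries that stand apart, and without the 3 the difference was not called (1.00, adjusted p = 0.116). The 250 bases before the Mylip start (chr13:45389492-45389741, plus strand) lie under Pol II and H3K27ac in the same way and hold a GC box and a TATA box, in capitals. The DR4 match with 1 mismatch lies 2.46 kb upstream (chr13:45387272-45387287, minus strand), at the edge of the H3K27ac region over the start.
Mylip: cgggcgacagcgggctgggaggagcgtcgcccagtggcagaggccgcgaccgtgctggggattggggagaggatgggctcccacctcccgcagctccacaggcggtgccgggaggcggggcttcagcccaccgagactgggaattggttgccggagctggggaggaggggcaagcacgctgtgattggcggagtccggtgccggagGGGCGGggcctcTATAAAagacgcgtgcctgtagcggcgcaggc
DR4, 2.46 kb upstream: aaacttgAGGTCAttgtAGGTTAagtaggg

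**Figure D3:**
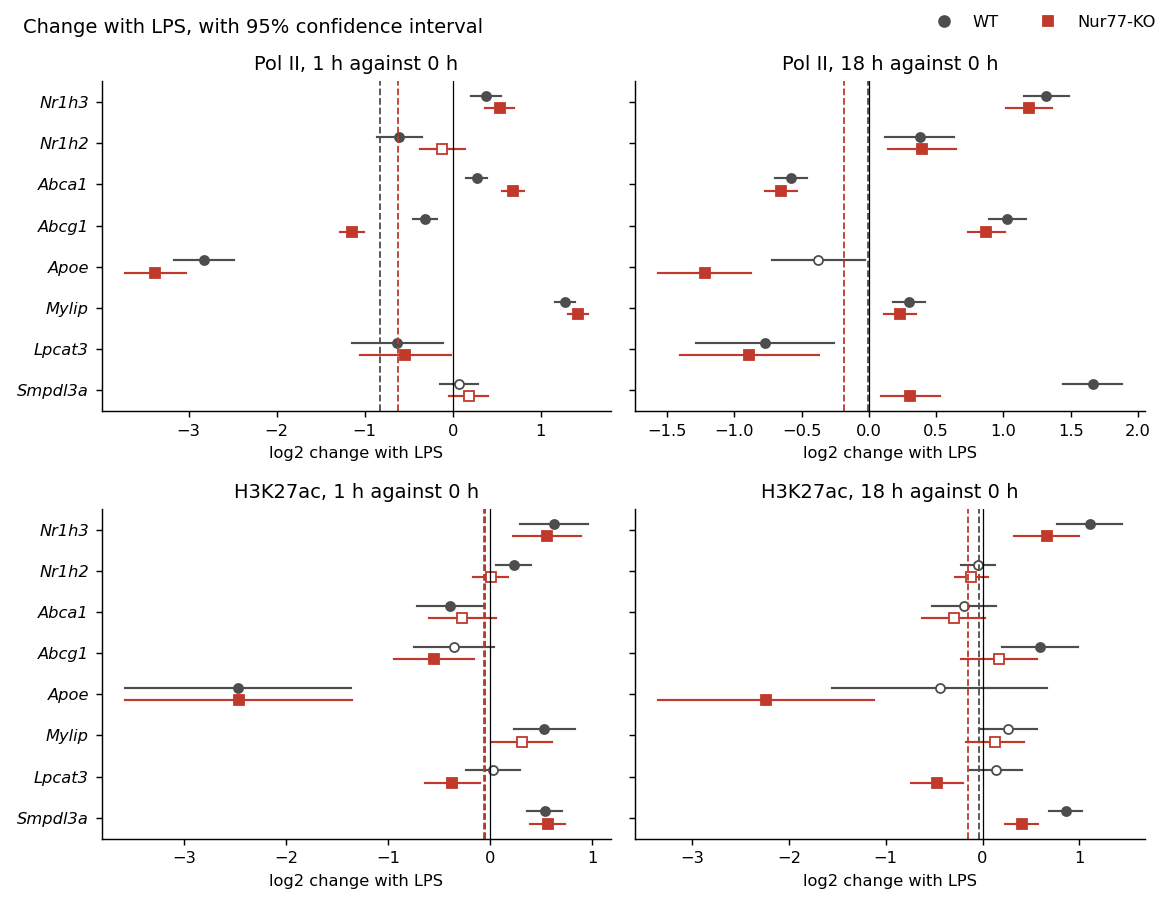
Change with LPS of each gene on the log2 scale (x axis) at 1 h (left) and 18 h (right) against 0 h, for Pol II (top) and H3K27ac (bottom), WT as grey circles and Nur77-KO as red squares. Lines are 95% confidence intervals, filled points have an adjusted p under 0.05, and dashed lines are the medians over all genes tested, at -0.82 (WT) and -0.62 (KO) for Pol II at 1 h; Apoe lies at -2.83 and -3.38 and Mylip at 1.28 and 1.42 in that panel.

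Lpcat3 (ENSMUSG00000004270, chr6:124663027-124704418, plus strand) carried little Pol II for its length and showed no difference between the genotypes that passed the test. WT libraries held 338, 491 and 421 tags at 0 h, 274, 242 and 272 at 1 h, then 331, 195 and 206 at 18 h. KO libraries held 373, 346 and 358, then 237, 229.9 and 266, then 137, 329.6 and 149. Groups of WT and KO overlapped at each time, with 1 library per genotype high at 18 h. Without the high KO library (replicate 2) the 18 h difference passed the test, at -0.69 (adjusted p = 0.0132). Regions covered 18.0% to 31.7% of the window, and in the median library 24.0% of the tags of those regions fell in it, the rest lying over neighbours such as Emg1. Pol II fell at 18 h in WT (-0.77 ± 0.24, SE, adjusted p = 0.0101; up to 0.0511 without WT 18 h replicate 2) and KO (-0.89 ± 0.24, SE, adjusted p = 0.00371). The 1 h fall in WT was -0.63 ± 0.24 (SE, adjusted p = 0.023), lost without WT 0 h replicate 2 or 3 or WT 1 h replicate 2. That in KO was -0.54 ± 0.24 (SE, adjusted p = 0.0498), lost in 13 of 18 fits with 1 library left out. After centring these changes were 0.17 and 0.04.

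At the Lpcat3 start H3K27ac changed sides between the genotypes over time. WT held 248, 261 and 227 tags at 0 h, 267, 239 and 244 at 1 h, then 275, 262 and 274 at 18 h, and KO 282, 283 and 291, then 274, 195 and 195, then 167, 233 and 216. All KO libraries lay above those of WT at 0 h and below them at 18 h, but the differences, 0.21 ± 0.13 (SE, adjusted p = 0.637) and -0.39 ± 0.13 (SE, adjusted p = 0.0969), did not pass the test. Without the 3 libraries they were 0.21 (adjusted p = 0.038) and -0.26 (adjusted p = 0.017), and the interaction at 18 h, -0.60 ± 0.18 (SE, adjusted p = 0.157) with all libraries, was -0.47 (adjusted p = 0.0057). In KO the mark fell by 0.47 ± 0.13 (SE, adjusted p = 0.00555) at 18 h, and at 1 h by 0.37 ± 0.13 (SE, adjusted p = 0.0242). Without the 3 libraries the 18 h change was -0.33 (adjusted p = 0.00063) and the 1 h change -0.06. In WT the changes were 0.03 and 0.14 at 1 and 18 h and did not pass, and the interaction at 1 h, -0.40 (adjusted p = 0.223), did not pass either. The 1 h call was lost without any KO 0 h library or KO 1 h replicate 2 or 3. An intronic region 24.1 to 26.9 kb from the start (chr6:124687133-124689893) lost the mark in both genotypes. WT went from 135, 133 and 136 tags at 0 h to 27.9, 16.9 and 38.2 at 18 h (-1.98 ± 0.31, SE, adjusted p = 4.42e-05). KO went from 125, 116 and 131 to 42.3, 22.4 and 20.2 (-1.85 ± 0.31, SE, adjusted p = 8.06e-05, and -2.10 without the 3 libraries). A weak Pol II region in the same place (chr6:124687720-124689214) held 9.14, 15.0 and 14.2 tags in WT at 0 h and 0 in all 3 at 1 h. The 1 NBRE match of the locus (chr6:124699033-124699040, plus strand, intron) lies in a region that was at 0 in all 6 libraries at 0 h and held 16.3, 12.1 and 5.99 tags in WT at 1 h.
NBRE, 36.0 kb: ttgtgaaAAAGGTCAccttgct

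**Figure D4:**
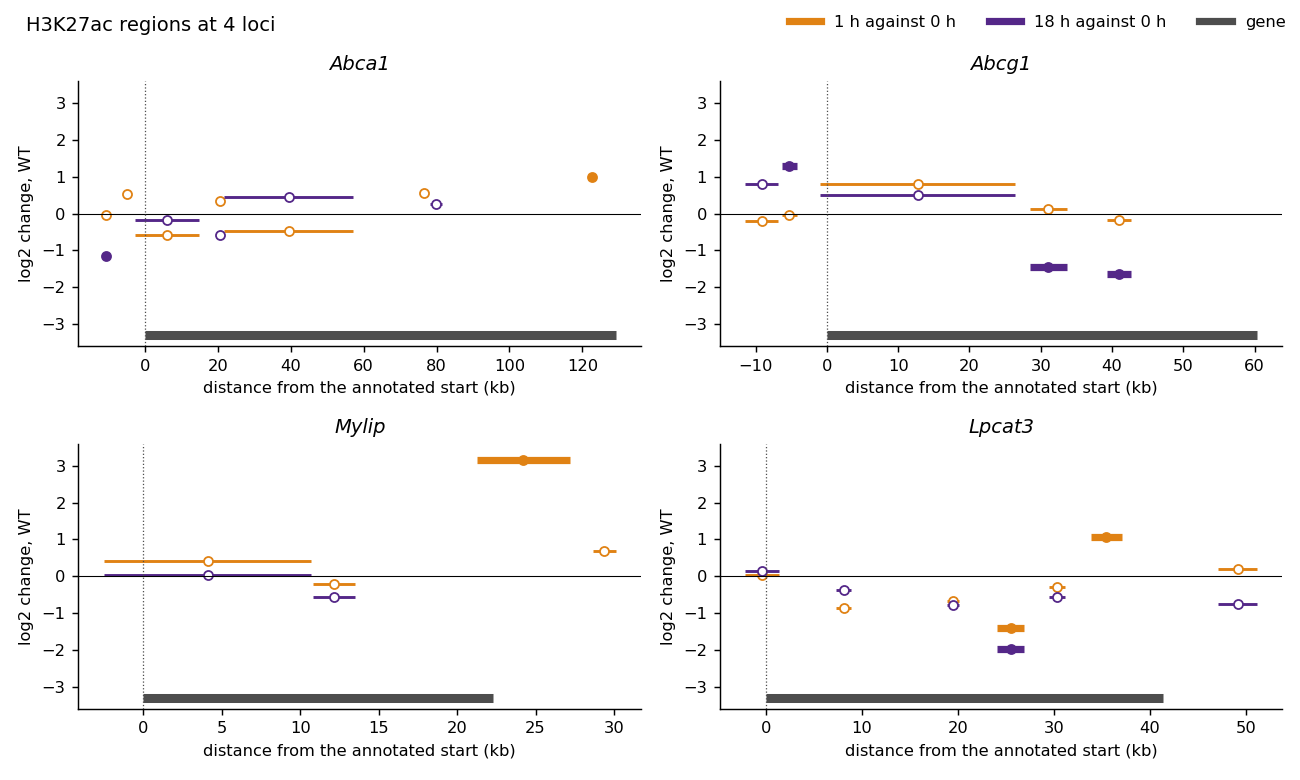
H3K27ac regions at Abca1, Abcg1, Mylip and Lpcat3, by distance from the annotated start in kb (x axis) and log2 change in WT (y axis) at 1 h (orange) and 18 h (purple). A bar spans the region and its point marks the centre, thick and filled where the change was called, and the grey bar is the gene. At Abcg1 the called 18 h regions lie above 0 upstream and below 0 in the gene. At Mylip the highest 1 h point is the region over the end, which was listed at 0 in all libraries at 0 h.

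Smpdl3a (ENSMUSG00000019872, chr10:57794335-57811830, plus strand) had, of the 8 genes, the Pol II change with LPS that differed most between the genotypes. WT libraries held 153, 144 and 133 Pol II tags at 0 h, 156, 139.6 and 156 at 1 h, then 433, 511 and 483 at 18 h. KO libraries held 218, 206 and 238, then 243, 278 and 233, then 315, 258 and 256. KO was above WT at 0 and 1 h and below it at 18 h, without overlap at any time. The differences were 0.59 ± 0.10 (SE, adjusted p = 0.00143), 0.70 ± 0.10 (SE, adjusted p = 5.59e-05) and -0.77 ± 0.10 (SE, adjusted p = 4.06e-05), and all 3 passed after centring as well. Those at 0 and 1 h went with the length that passed the region search. In the median library regions covered 4.57 kb of the window in WT and 6.18 kb in KO at 0 h. At 1 h they covered 2.76 to 3.25 kb in WT and 4.18 to 5.83 kb in KO. Density where covered was 31.7 ± 5.11 tags per kb in WT and 35.01 ± 0.868 in KO at 0 h (SD, n = 3). It was 50.9 ± 3.06 and 53.4 ± 4.95 at 1 h. Over 500 bp around the start neither the 0 h nor the 1 h difference was called.

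From 0 to 18 h Smpdl3a Pol II rose by 1.66 ± 0.10 (SE, adjusted p = 1.62e-10) in WT, 3.17-fold. In KO it rose by 0.31 ± 0.10 (SE, adjusted p = 0.0134), 1.24-fold (lost without KO 0 h replicate 2 or KO 18 h replicate 1, adjusted p up to 0.0889). The interaction was -1.35 ± 0.15 (SE, adjusted p = 8.29e-06), and -1.19 (adjusted p = 3.99e-05) after centring. It went with the length that passed the region search. At 18 h regions covered 12.9 to 17.1 kb of the window in WT and 8.62 to 10.7 kb in KO. Within what was covered the density was 31.1 ± 2.04 tags per kb in WT and 28.7 ± 1.74 in KO (SD, n = 3). Over 500 bp around the start the 18 h difference was 0.21 (adjusted p = 0.437) and the interaction -0.14 (adjusted p = 0.763). The lower Pol II of KO was thus measured in the body and at the end of the gene. A region over the end (chr10:57810911-57816159) held 8.03, 15.7 and 0 tags in WT at 0 h, 71.6, 86.1 and 65.2 at 18 h (2.33 ± 0.32, SE, adjusted p = 8.94e-06; 31.1% of Pol II regions called) and 48.4, 48.2 and 49.3 in KO at 18 h. The body region (chr10:57791111-57810303) had an interaction of -1.14 ± 0.10 (SE, adjusted p = 2.15e-06), for which 5.28% of Pol II regions were called. Without antibody, the input library of a group held 10.3% to 51.2% of the mean ChIP value in this window, the most of the 8 genes, and 0% to 27.2% in the next, Lpcat3.

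H3K27ac at the Smpdl3a start gave the only genotype difference of this mark that passed the test among the 8 genes with all libraries. WT held 591, 566 and 592 tags at 0 h, 883, 827 and 838 at 1 h, then 1097, 1064 and 1041 at 18 h. KO held 664, 638 and 613, then 1066, 936 and 855, then 906, 843 and 795. Every WT library was higher at each later time, whereas the KO libraries of 1 and 18 h overlapped, and at 18 h all KO libraries were below all WT libraries. The 18 h difference was -0.33 ± 0.08 (SE, adjusted p = 0.0333), lost after centring (adjusted p = 0.0954) and without KO 0 h replicate 2, KO 18 h replicate 2 or 3 or any WT 18 h library (adjusted p up to 0.134), and without the 3 libraries -0.38 (adjusted p = 0.000553). The interaction at 18 h was -0.46 ± 0.11 (SE, adjusted p = 0.0941) with all libraries and -0.51 (adjusted p = 0.00143) without the 3. Downstream of the gene (chr10:57818322-57820371) the mark rose at 1 h in WT from 9.05, 0 and 0 to 47.8, 53.5 and 58.2 tags (2.35 ± 0.41, SE, adjusted p = 0.000134).

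Between the genotypes, H3K27ac by limma differed at 0 h for 0 of 8 genes (0 also at an unadjusted p under 0.05; 0.770% of all genes called). At 1 h it differed for 0 of 8 (1 at an unadjusted p under 0.05; 18.5% of genes called). At 18 h it was lower for 1 (3.24% called). Without the 3 libraries that stand apart, 1 gene was called at 0 h (9.90% of genes called), Lpcat3, higher in KO by 0.21 (adjusted p = 0.038), 1 at 1 h (8.53% called), Smpdl3a, higher in KO by 0.32 (adjusted p = 0.00926), and 3 at 18 h (Apoe, Lpcat3 and Smpdl3a, all lower in KO; 18.7% called). H3K27ac at macrophage markers was lower in KO at 18 h as well, at Itgam (-0.79) with all libraries and at Itgam (-0.71) and Lyz2 (-0.59) without the 3, and its part in these differences was not tested. With all libraries the LPS change differed between the genotypes for 0 of 8 genes at 1 h (1 at an unadjusted p under 0.05; 0.543% of genes called) and 0 at 18 h (3 at an unadjusted p under 0.05; 0.630% called). Without the 3 libraries it differed for the same 3 genes at 18 h (14.4% called). The median difference of the 8 genes at 18 h was -0.30, beside -0.04 over all genes. Over the whole region at the start in place of the window, Mylip in KO at 18 h was lower than at 0 h (-0.22, adjusted p = 0.034, where the window gave 0.13). The 18 h interaction of Smpdl3a passed with all libraries (-0.49, adjusted p = 0.0284). Abca1 in KO also passed downward at 1 h (-0.96, adjusted p = 0.00134) and 18 h (-0.53, adjusted p = 0.0347), unlike in the window. So did Abcg1 in KO upward at 18 h (0.51, adjusted p = 0.00157). Without the 3 libraries the 18 h genotype difference over the whole region was 0.39 at Abcg1, higher in KO. It was -0.51 at Apoe, -0.38 at Smpdl3a, -0.26 at Lpcat3 and -0.05 to 0.11 at the others. At 1 h it was 0.53 at Abca1, 0.34 at Smpdl3a, 0.27 at Mylip and -0.06 to 0.13 at the others.

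LPS raised H3K27ac at the start of 4 of 8 genes in WT at 1 h (Nr1h3, Nr1h2, Mylip and Smpdl3a) and lowered it at 2 (Abca1 and Apoe), with 54.6% of all genes called. At 18 h in WT it was raised at 3 (Nr1h3, Abcg1 and Smpdl3a) and lowered at 0 (50.0% called). In KO it was raised at 2 and lowered at 3 at 1 h (46.9% called) and raised at 2 and lowered at 2 at 18 h (52.6% called). These counts in KO without the 3 libraries were 2 and 2 at 1 h (59.3% called) and 3 and 3 at 18 h (67.7% called). Nr1h3 and Smpdl3a were thus raised at both times in both genotypes. At 18 h in WT both Pol II and H3K27ac rose at those genes and at Abcg1, while Abca1 fell in Pol II by 0.58 and its H3K27ac change was -0.19, which did not pass.

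**Figure D5:**
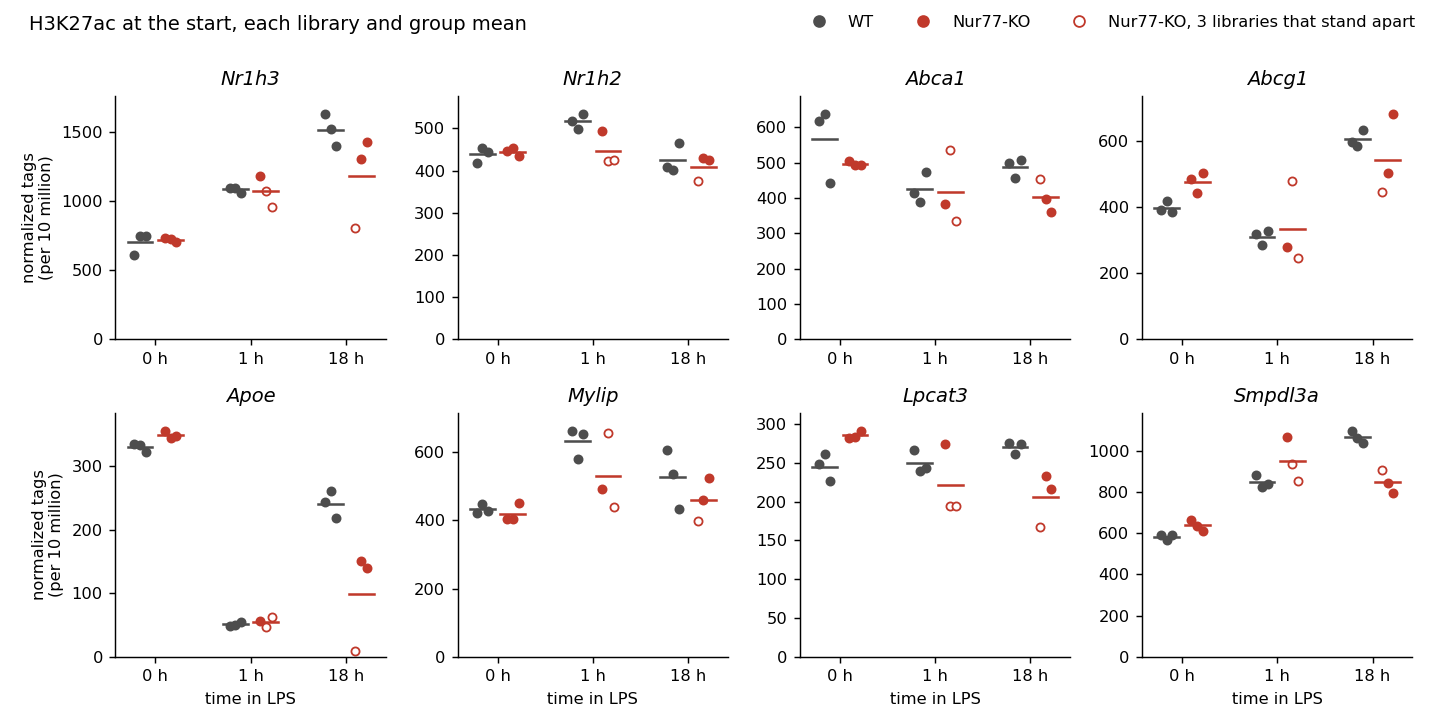
Normalized H3K27ac tags per 10000000 within 2500 bp of each gene start (y axis, from 0, linear, scaled per gene) against time in LPS, with a point per library and a bar for the group mean (n = 3), WT in grey and Nur77-KO in red. Hollow points are the 3 KO libraries that stand apart; at Apoe 1 of them is the lowest value at 18 h (8.50 tags), and at Smpdl3a all KO libraries lie below WT at 18 h (795 to 906 against 1041 to 1097 tags).

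Around the 8 genes, with 10 kb on either side, lay 24 merged Pol II regions, of which 10 were found in all 18 libraries, and 51 merged H3K27ac regions, of which 18 were. For Pol II, 5 were called at 1 h (49.9% of all regions) and 6 at 18 h (31.1%) in WT, and 4 at 1 h (47.2%) and 4 at 18 h (37.0%) in KO. Between the genotypes at 0 h, a weak Pol II region downstream of Nr1h2 (chr7:44542739-44545364) was called (2.27% of all regions), with 18.5, 11.2 and 31.4 tags in WT and 0, 6.96 and 0 in KO. For H3K27ac, 8 were called at 1 h (40.8% of all regions) and 8 at 18 h (38.9%) in WT, and 12 at 1 h (27.3%) and 11 at 18 h (40.1%) in KO. With the 3 libraries left out, the counts in KO were 8 at 1 h (35.9%) and 9 at 18 h (43.5%). Between the genotypes, 2 H3K27ac regions were called at 0 h (1.85% of regions), both within Abca1, 69.4 to 71.0 and 78.2 to 81.4 kb from its start, and both weak. The first held 15.3, 15.2 and 7.21 tags in KO and 0 in all 3 WT libraries. Downstream of Nr1h2 (chr7:44547352-44549557) H3K27ac fell at 18 h from 103, 100.0 and 104 to 25.3, 12.7 and 24.2 tags in WT (-1.90 ± 0.22, SE, adjusted p = 2.37e-06). In KO it fell from 80.4, 88.3 and 66.6 to 35.2, 14.5 and 16.6 (-1.51 ± 0.22, SE, adjusted p = 2.34e-05, and -1.78 without the 3 libraries).

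The promoter table of RefSeq (GRCm38) held entries for 6 of the 8 genes, 9 in all, and the DR4 and NBRE letters were in 0 of the 9, against 1.75% and 1.51% of 32851 promoters of the same length. A TATA box was found in 3 of the 9 (at Abca1, Apoe and Mylip; 13.6% of all promoters), a GC box in 3 (at Abca1, Lpcat3 and Mylip; 35.7%) and an E box in 1 (Abca1; 7.15%), each searched on both strands. In all H3K27ac regions cut into windows of 300 bases, 1.94% of 626297 windows held the DR4 letters and 1.57% the NBRE letters. At the 8 loci 23 of 731 windows (3.15%) held DR4 letters and 6 (0.821%) the NBRE. These shares are descriptions, and a window without a match says only that it lacks those letters within the mismatches allowed. A looser match can still be present, as in the Abca1 promoter window.

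Other genes of the pathway were read from lists by Pol II. Of 16 other LXR targets, 1 was higher and 1 lower in KO at 0 h among 14 tested, 3 and 4 among 9 at 1 h, and 2 and 5 among 12 at 18 h, where 6.96%, 45.7% and 21.1% of all genes were called. Cd5l, which encodes a macrophage-secreted survival factor, was far lower in KO at every time. It held 9.71 ± 4.26 tags in KO against 809 ± 70.7 in WT (SD, n = 3) at 0 h (-5.39 ± 0.13, SE, adjusted p = 3.37e-14). It was at 0 in all KO libraries at 1 and 18 h, against 212 ± 20.3 and 724 ± 39.8 in WT. Pltp, the phospholipid transfer protein, was also lower in KO at 1 h, by 1.15 ± 0.07 (SE, adjusted p = 1.41e-09), at 168 ± 12.2 against 385 ± 7.28 tags, and at 18 h, by 0.92 ± 0.07 (SE, adjusted p = 3.11e-08), at 1242 ± 52.9 against 2357 ± 82.5. Mertk, a receptor for apoptotic cells, was the target higher in KO at 0 h (0.47 ± 0.06, SE, adjusted p = 4.34e-05). With 1 h of LPS 13 of 14 targets tested fell in WT and 0 rose, where 9054 of all 13240 genes tested fell and 2457 rose. Among the targets that fell was Scd2, a fatty acid desaturase, which went from 626 ± 61.0 tags to 0. At 18 h 4 rose and 7 fell (66.5% of all genes called), with lipoprotein lipase (Lpl) changed by -2.08 ± 0.06 (SE, adjusted p = 4.72e-15).

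Of 13 LXR partners and co-regulators, 12 were tested. At 0 h 0 of them differed between the genotypes by limma at an adjusted p under 0.05 (6.96% of all genes called). At 1 h 5 were higher and 2 lower in KO (45.7% of all genes called). At 18 h 0 were higher and 1 lower (21.1% called). Tbl1xr1, a subunit of the co-repressor complex, was higher at 1 h (1.12 ± 0.18, SE, adjusted p = 0.000128). In WT 1 h of LPS lowered 10 and raised 1 of the 12, with 86.9% of all genes called, most of them falls. The LXR partner Rxra went from 172 ± 25.2 to 2.29 ± 3.96 tags. At 18 h 7 were raised and 2 lowered, with 66.5% of all genes called. Rxra then held 600.2 ± 5.53 tags (1.76 ± 0.30, SE, adjusted p = 5.29e-05), a rise over its body that was -0.35 within 500 bp of its start.

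Among 7 oxysterol enzymes, of which 4 were tested in the genotype comparisons, Ch25h, which makes the LXR ligand 25-hydroxycholesterol, was lower in KO at 1 h (-1.11 ± 0.19, SE, adjusted p = 0.000273). At 18 h it held 48.4 ± 2.01 Pol II tags in KO while all 3 WT libraries were at 0 (adjusted p = 4.93e-08). Its H3K27ac at 18 h was 81.9 ± 2.32 tags in KO and 19.3 ± 5.97 in WT (1.67 ± 0.38, SE, adjusted p = 0.0223, and 1.65 without the 3 libraries). Of 10 genes of sterol uptake, storage and trafficking, 1 was higher and 1 lower in KO before LPS (6.96% of all genes called). After 1 h of LPS 7 were higher and 1 lower, where 4618 of all 12079 genes tested were higher and 905 lower, and at 18 h 0 and 2 (21.1% called). The scavenger receptor genes Cd36 and Msr1 were higher (0.39 ± 0.07, SE, adjusted p = 0.0016) and lower (-0.69 ± 0.06, SE, adjusted p = 9.33e-07) in KO at 0 h. Of 11 genes of sterol sensing and synthesis, 0 differed at 0 h (6.96% called). At 1 h 7 of 9 tested were higher in KO, against the same 4618 of 12079, with Insig1, which holds back sterol synthesis, higher by 0.66 ± 0.07 (SE, adjusted p = 1.05e-06). At 18 h 1 of 10 was lower (21.1% called). The list medians at 1 h were 0.53 for uptake and 0.60 for synthesis, beside 0.24 for all genes.

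Across the 18 Pol II libraries, the genes whose log2 values followed Abca1 most closely, of 10650 above 0 in every library, were Fem1b, Tgfbr2 and Ppm1a (Pearson r of 0.991, 0.986 and 0.986). Nr1h3 was followed most closely by Riok3, Pkd1l3 and Ero1l (0.985, 0.985 and 0.985). Among the 8 genes, Abca1 ran against Abcg1 (r of -0.93) and Nr1h3 went with Smpdl3a (0.80). The 18 libraries share 6 groups and a common scaling, so these values describe the time courses and carry no test.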

How the data were processed

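Chromatin immunoprecipitation sequencing of RNA polymerase II and H3K27ac was analysed in 36 libraries, with 6 input libraries. According to the methods and the submitters' processing notes, the authors used Skewer for trimming and HISAT2 2.1.0 for alignment to mm10, removed duplicates and searched regions in each library with HOMER, without input as control. The deposited region lists give a signal, the normalized tag count per 10000000 tags, and their headers state a Poisson p-value threshold of 0.001, a peak size of 500 bp and a minimum distance between peaks of 1000 bp. A stretch with no region counts as 0, so values depend on the search, and a low value may be a region that was missed.

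Regions were shared by overlap (bedtools 2.31.1) over windows of 21897 protein-coding genes of GENCODE vM21 (GRCm38, the assembly of mm10; 54 genes with duplicate symbols left out), and merged across libraries. Genes above 0 in at least 2 of 3 libraries of a compared group were tested with limma 3.58.1 (R 4.3.3) on log2(tags + 10), fitted per antibody to 6 group means over 18 libraries, with Benjamini-Hochberg adjustment over all genes tested. Fold changes are on that scale and understate low genes. Genes were called at an adjusted p under 0.05, and merged regions also at an absolute log2 change over 1. The p-values and confidence intervals cover the spread between libraries only.

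All 8 genes are named. Of 5 pathway lists, the text names genes from the 2 with the largest change among those called without overlap in a comparison; Scd2, Insig1 and the H3K27ac of Ch25h were taken from the same tables. At each locus the region with the largest called change is described, and other regions were chosen after their values were seen. The members and lists were chosen with earlier results of these data known. Alternatives were another pseudocount, no filter, centring, quantile normalization, a narrow window, a common density floor, no intensity trend, a replicate block and each library left out. A coding transcript extent, the fit without 3 KO libraries and the whole merged region over each start, read by adjusted p alone, were added after seeing the data. Some items of these lists and loci are not reported here. The number of columns left unmapped was 0.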

Additional observations from a re-analysis of the deposited data

Results flagged for a closer look

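In all, 4 Pol II changes with LPS differed between the genotypes by limma's interaction term, the KO change minus the WT change. For Abca1 at 1 h it was 0.41 on the log2 scale, with both genotypes rising, but falling after quantile normalization (-0.61 in WT and -0.075 in KO). For Abcg1 at 1 h it was -0.82, with both falling, but WT rising after centring (0.48). For Apoe at 18 h it was -0.84, which did not hold after centring, and for Smpdl3a at 18 h it was -1.35, which over 500 bp around the start was -0.14. Among H3K27ac changes, 0 of the 8 genes passed this test at either time with all libraries by limma, beside 1 at 1 h and 3 at 18 h at an unadjusted p under 0.05.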

How the results depend on the processing

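Values are counts of the 8 genes called, or log2 changes. Over 500 bp around the start, Pol II calls between the genotypes were 0 at 0 h, 2 at 1 h and 1 at 18 h (2.76%, 23.4% and 4.95% of genes called). LPS calls were 4 at 1 h and 4 at 18 h in WT and 5 at 18 h in KO, and interaction calls at 18 h were 0. Shares over all genes are not given for these LPS and interaction calls, so a general fall in calls cannot be told apart. In that window Pol II directions turned for Smpdl3a (0.21) and, at 1 h, Nrip1 (-0.19) between the genotypes; for Nr1h2 (0.34), Abca1 (-0.026) and Abcg1 (0.027) at 1 h in WT; for Lpcat3 (0.28), Ncoa1 (-0.17), Rxra (-0.35), Sqle (0.056) and Hmgcs1 (-0.043) at 18 h in WT; and for Lpcat3 (0.030) and Ncoa1 (-0.38) at 18 h in KO. H3K27ac of Mylip at 1 h in WT was -0.049 there. Centring left 1 Pol II interaction call at 18 h, where 1330 of 13566 genes tested were called upward and 767 downward. It turned Mylip between the genotypes at 1 h (-0.10), Nr1h2 (0.19), Abcg1 (0.48) and Lpcat3 (0.17) at 1 h in WT, and Nr1h2 (0.46) and Lpcat3 (0.036) at 1 h in KO. Quantile normalization turned Nr1h2 (0.057) and Abca1 (-0.61) at 1 h and Mylip (-0.026) at 18 h in WT, and Nr1h2 (0.36) and Abca1 (-0.075) at 1 h in KO. H3K27ac calls between the genotypes at 18 h were 0 after centring (181 of 11465 genes tested higher and 158 lower) and 0 after quantile normalization (186 higher and 151 lower). Without the 3 KO libraries that stand apart, H3K27ac calls between the genotypes were 1 at 0 h, 1 at 1 h and 3 at 18 h, with 5 for LPS at 18 h in WT and 3 for the interaction at 18 h. The cause of these changes was not tested. With each library left out in turn, Pol II calls between the genotypes ranged from 2 to 3 at 0 h, 3 to 7 at 1 h and 2 to 4 at 18 h, and interaction calls from 2 to 5 at 1 h and 1 to 2 at 18 h. H3K27ac calls ranged from 0 to 2 between the genotypes at 1 h and at 18 h, from 3 to 5 for LPS at 1 h in KO, and from 0 to 2 for the interactions at 1 h and at 18 h. Shares over all genes are not given for these ranges. Of 2592 such member changes 2493 stayed on their side of the threshold. Replicate numbers did not pair the samples: deviations of same-numbered Pol II libraries correlated at -0.07 to 0.11. For H3K27ac the range was wider, -0.43 to 0.08 for same-numbered libraries and -0.33 to 0.41 for the others. With a replicate block, 141 of 144 member changes stayed on their side, and Pol II calls were 6 between the genotypes at 1 h and 3 for the interaction at 1 h.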

Other observations

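H3K27ac at the other LXR targets was read in the same way. With all libraries, 0 of 13 tested were higher and 1 lower in KO at 0 h (0.770% of all genes called). At 1 h 3 of 13 were higher and 1 lower (18.5% called). Of 12 tested at 18 h, 0 were higher and 4 lower in KO (3.24% of all genes called), and without the 3 KO libraries that stand apart 0 and 7 (18.7% called). At Cd5l the mark held 26.1 ± 9.28 tags in KO and 199.9 ± 23.3 in WT at 0 h (SD, n = 3; log2 change -2.56 ± 0.29, SE, adjusted p = 0.000134 in limma). At 18 h it held 5.21 ± 5.06 tags in KO and 205 ± 17.8 in WT (log2 change -3.88, and -4.10 without the 3 libraries). These 16 genes include the 3 apolipoprotein genes Apoc1, Apoc2 and Apoc4 that neighbour Apoe.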
